A study of Mus musculus with 2 samples.

Results

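The Wnt pathway genes described here are the genes of the count table whose symbol names a Wnt ligand, a protein that secretes it, a frizzled receptor, an LRP5/6 or ROR co-receptor, an R-spondin or its LGR receptor, a secreted antagonist, or a cytoplasmic or nuclear transducer of the signal. The rule that picks them uses symbols and no measured value, but it was written with earlier results of these data known. They number 62 of the 24532 genes in the table. The cells were cardiac myofibroblasts, the collagen-producing cells of the injured heart, taken from C57BL/6 mice 3 days after myocardial infarction (MI) as the CD45-negative fraction of the infarct and grown in DMEM with serum. All cells received 12.5 nM siRNA by lipofection and were harvested after 72 h, with a control siRNA in the group called siCtrl and an siRNA against *Vgll3*, a transcriptional cofactor, in the group called si*Vgll3*. Polyadenylated RNA of 1 library per group was sequenced, so no difference below has a replicate check, no test of the conditions was possible, and each comparison is between 2 libraries. How many mice or cultures stand behind a library is not given in the sources used here.

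Wnt proteins are secreted lipid-modified ligands that bind frizzled receptors. With the co-receptors LRP5 and LRP6 they stop a cytoplasmic complex built on Axin from degrading β-catenin, which then enters the nucleus and acts with TCF/LEF factors. Other Wnt proteins, such as WNT5A, act through ROR receptors and cell polarity proteins without β-catenin. In the heart the pathway is largely quiet in the adult and is known to be active again in fibroblasts of the healing infarct, where secreted frizzled-related proteins (SFRPs), decoys that share the frizzled ligand-binding domain, are among its best-known regulators.

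The siCtrl library held 140815237 reads on genes and the si*Vgll3* library 125789276. Levels are given as TPM, a unit of transcript abundance scaled for gene length and depth, so that genes can be compared with each other. M is the log2 ratio of TPM in si*Vgll3* to siCtrl, A is the log2 of the mean of both TPM values, and a gene with A above 0 was called lower at M < −0.5 and higher at M > 0.5. The range in square brackets after M is its 95% Clopper-Pearson interval from the read counts, which covers counting error only. It treats reads as independent molecules, which they are not, so it is likely too narrow even for that. *Vgll3* itself was at 202 TPM with siCtrl and 84.0 TPM with si*Vgll3*, which left 41.6% of the siCtrl level. The 10 fibroblast and myofibroblast markers were all at A above 0, and their TPM came to 18947 with siCtrl and 14944 with si*Vgll3*. Of these 5 were lower (*Col1a1*, *Col1a2*, *Col3a1*, *Postn* and *Tcf21*), 2 higher (*Thy1* and *Tagln*) and 3 within the thresholds. Among all genes at A above 0, 11.4% were lower and 5.73% higher. With siCtrl first, the sums were 14.3 and 12.1 TPM for 8 leukocyte markers, of which *Ptprc*, *Adgre1* and *Itgam* had 0 reads. They were 27.0 and 22.7 TPM for 6 endothelial markers. Within the leukocyte sum *Lyz2* was lower (10.9 and 3.13 TPM), while *Cd53* (0.760 and 5.91 TPM) and *Csf1r* (1.29 and 1.83 TPM) were higher. Within the endothelial sum *Tek* was lower (19.5 and 13.4 TPM). *Cdh5* (2.13 and 3.01 TPM) and *Pecam1* (1.89 and 2.61 TPM) rose within the thresholds. *Kdr* (0.231 and 0.452 TPM) had an M of 0.97 [0.57, 1.38] but lay at A below 0, so no call was made for it. *Emcn* and *Tie1* had M of −0.02 and −0.04. The sums were 2.11 and 1.54 TPM for 5 pericyte and smooth muscle markers, 61.5 and 51.8 TPM for 5 mesothelial markers, and 0.0496 and 0.0962 TPM for 3 Schwann cell markers. Of 7 cardiomyocyte markers 5, *Myh6* among them, had 0 reads in both libraries, and *Tnnt2* alone gave 60.0 and 10.4 TPM.

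Of the 62 Wnt genes, 45 had a TPM value and 36 of these were at A above 0, while 9 lay at or below it. A further 11 had 0 reads in both libraries, 5 had reads in 1 library only, and 1 (*Wnt10a*) had reads in both but no TPM. Of the 36 genes at A above 0, 12 were lower in si*Vgll3* and 2 were higher. Among all 11754 genes at A above 0, 11.4% were lower and 5.73% were higher, against 33.3% and 5.56% of the 36 Wnt genes. The median M was −0.29 over the 36 genes and −0.05 over all genes at A above 0. M was below 0 for 27 of the 36 and for 6700 of the 11754. The whole counting interval lay past the threshold for all 12 lower and both higher genes, a bar that 8.31% of all genes passed downwards and 3.76% upwards. Among the 36, *Lgr6*, *Rspo1* and *Tcf7* were under 1 TPM in one of the libraries and so passed A above 0 through the other. Together the Wnt genes held 0.300% of all TPM with siCtrl and 0.220% with si*Vgll3*. Their summed TPM differed by −798, while *Sfrp1* alone differed by −591 and *Frzb* by −222. In bulk RNA, fewer cells that express a gene and less of its RNA per cell cannot be told apart.

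**Figure D1:**
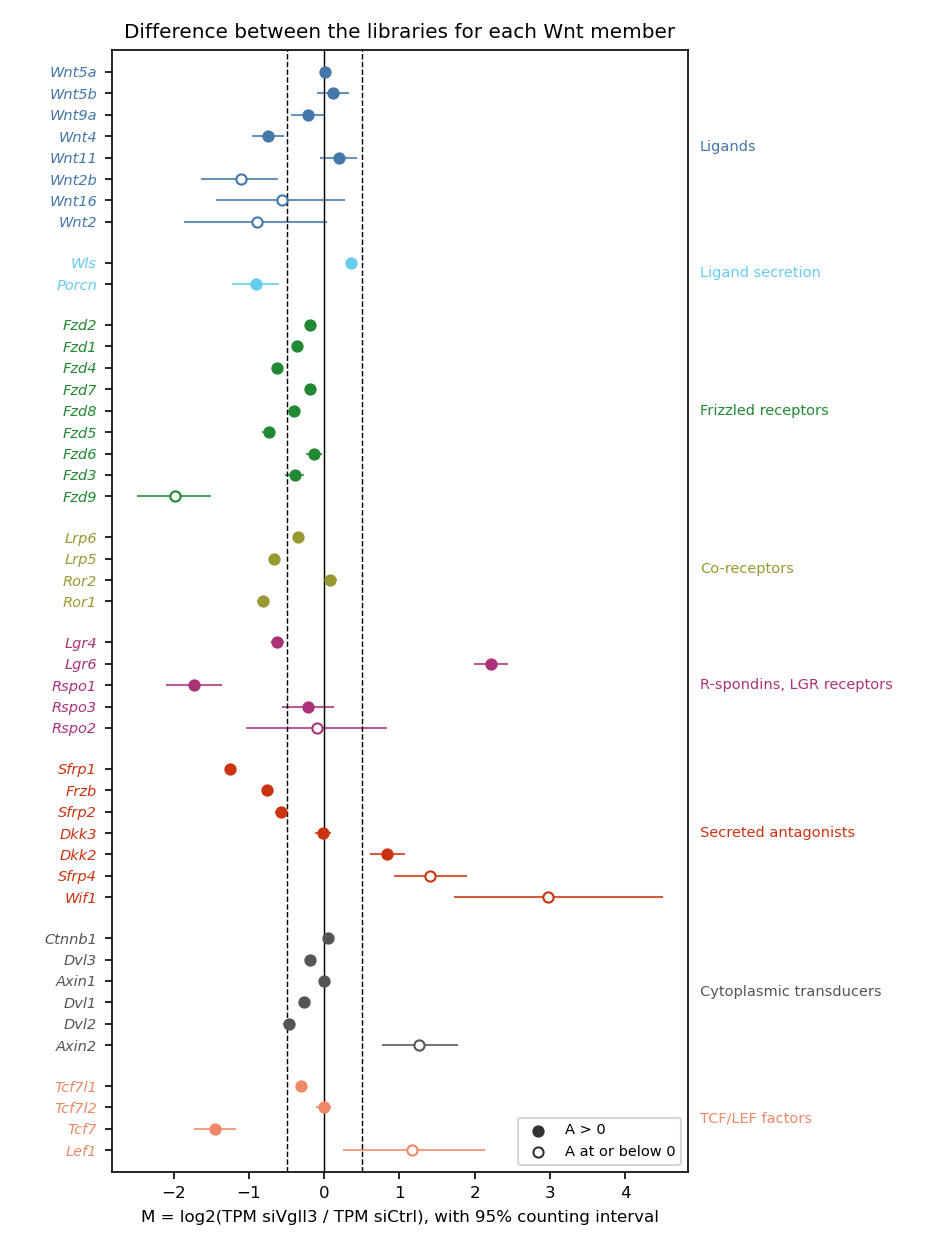
M of the 45 Wnt genes with a TPM value, grouped by role, with filled points for genes at A above 0 and open points for the others. Bars are 95% counting intervals of 1 library per group and dashed lines mark M of −0.5 and 0.5, and the filled points past a line are the 12 lower and 2 higher genes.

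The secreted antagonists were the most abundant Wnt genes and differed most in amount. Their TPM came to 1604 with siCtrl and 781 with si*Vgll3*, a log2 ratio of −1.04, and 5 of the 10 were at A above 0, with 3 lower and 1 higher (11.4% and 5.73% of all genes). *Sfrp1*, which binds Wnt ligands outside the cell, had 283663 reads and 1016 TPM with siCtrl and 109971 reads and 426 TPM with si*Vgll3*. Among the 14158 genes with a TPM value it ranked 155th with siCtrl and 368th with si*Vgll3*, and its M was −1.26 [−1.27, −1.25]. *Frzb*, which encodes the related decoy sFRP3, was at 539 TPM with siCtrl and 317 TPM with si*Vgll3* (M of −0.77 [−0.78, −0.75]). These 2 genes made up nearly all of the group, so that *Sfrp1* held 63.4% of its TPM with siCtrl and 54.5% with si*Vgll3*. Without *Sfrp1* the log2 ratio of the sums was −0.73. The difference in TPM was −591 for *Sfrp1* and −222 for *Frzb*, out of −823 for the whole group.

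*Sfrp2*, the third SFRP gene with a sizeable level, was at 38.2 TPM with siCtrl and 25.7 TPM with si*Vgll3*. Its M of −0.57 [−0.64, −0.51] was the closest to the threshold among the 12 lower genes. *Sfrp4* went the other way at a low level, at 55 reads (0.490 TPM) with siCtrl and 135 reads (1.30 TPM) with si*Vgll3*, and its M was 1.40 [0.94, 1.88] at A below 0. *Sfrp5* had 0 reads in both libraries, which allows up to 3 reads. The genes that encode SFRP decoys therefore did not share 1 direction, although the most abundant of them did.

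The DKK genes encode another class of antagonist that blocks LRP5 and LRP6. *Dkk1* and *Dkk4* had 0 reads. *Dkk2* was at 1.20 TPM with siCtrl and 2.13 TPM with si*Vgll3* (M of 0.84 [0.62, 1.06]), which made it 1 of the 2 higher Wnt genes, and M was 0.51 with 1 TPM added to each value. *Dkk3*, a divergent member that does not block LRP6 like the others, was at 8.85 and 8.73 TPM (M of −0.02 [−0.11, 0.08]). *Wif1*, which binds Wnt ligands directly, had 6 reads with siCtrl and 44 with si*Vgll3* (M of 2.97 [1.73, 4.49]) at only 0.0419 and 0.328 TPM. Summed, *Dkk2*, *Dkk3* and *Wif1* came to 10.1 TPM with siCtrl and 11.2 TPM with si*Vgll3*, against 1593 and 769 TPM for the SFRP genes with *Frzb*.

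**Figure D2:**
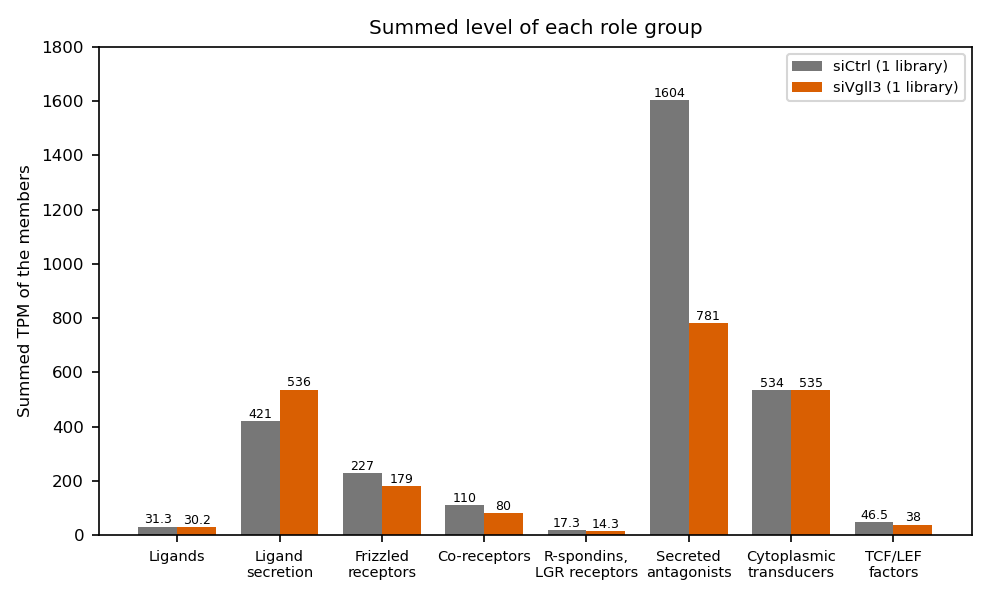
Summed TPM of the Wnt genes of each role (y axis from 0), with 1 bar per library. The secreted antagonists stand at 1604 TPM in siCtrl and 781 TPM in siVgll3, while the cytoplasmic transducers stand at 534 and 535 TPM.

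The ligands, by contrast, were at low levels, and their sum hardly differed. Over the 8 of 19 *Wnt* genes with a TPM value the levels came to 31.3 with siCtrl and 30.2 with si*Vgll3*, a log2 ratio of −0.05. *Wnt5a*, the typical ligand of the β-catenin-independent branch, gave 68.7% of this sum with siCtrl and 71.6% with si*Vgll3*. It was at 21.5 and 21.6 TPM, from 5953 and 5546 reads, and its M of 0.01 [−0.04, 0.06] lay wholly within the thresholds. Without *Wnt5a* the log2 ratio of the sums was −0.19. Secreted antagonist TPM was 51.2 times the ligand TPM with siCtrl and 25.8 times with si*Vgll3*.

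Of the other ligands at A above 0, *Wnt5b* was at 2.84 TPM with siCtrl and 3.08 TPM with si*Vgll3* (M of 0.11 [−0.08, 0.31]). *Wnt9a* was at 1.99 and 1.71 TPM, and its M was −0.22 [−0.43, −0.01]. *Wnt11*, another ligand of the β-catenin-independent branch, was at 1.60 and 1.83 TPM (M of 0.19 [−0.04, 0.43]). The intervals of *Wnt5b* and *Wnt11* held 0 and that of *Wnt9a* nearly reached it. The only ligand called lower was *Wnt4*, with 564 reads and 2.31 TPM with siCtrl and 311 reads and 1.37 TPM with si*Vgll3* (M of −0.75 [−0.95, −0.55]). Its M became −0.48 when 1 TPM was added to each library's value, and it was the only one of the 14 called Wnt genes to lose its call under the scalings and added values tried.

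The remaining ligands were near the limit of detection. *Wnt2b* had 116 reads with siCtrl and 50 with si*Vgll3* (M of −1.11 [−1.62, −0.62]) at 0.507 and 0.234 TPM. *Wnt2* and *Wnt16* had at most 34 reads in a library, and their intervals held 0. *Wnt10b* had 0 reads with siCtrl and 30 with si*Vgll3*, at least 11.2-fold higher as a share of all reads when 0 is set to the limit of 3 reads and the other count is taken as exact. On the same basis *Wnt7a* (0 and 8 reads) was at least 2.99-fold higher and *Wnt3* (0 and 6 reads) at least 2.24-fold higher, while *Wnt6* (11 and 0 reads) was at least 3.28-fold lower. *Wnt10a* had 3 and 20 reads, a ratio of 7.46 with a counting interval of 2.21 to 39.2. *Wnt6* and *Wnt10a* lie 6193 bases apart on the same strand of chromosome 1 and differed in opposite directions. *Wnt1*, *Wnt3a*, *Wnt7b*, *Wnt8a*, *Wnt8b* and *Wnt9b* had 0 reads in both libraries.

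The genes that make ligands ready for release were far apart in level and in direction. *Wls* encodes the carrier that brings lipid-modified Wnt proteins to the cell surface. It was at 418 TPM with siCtrl and 535 TPM with si*Vgll3*, the highest Wnt gene of the si*Vgll3* library, and its M was 0.35 [0.34, 0.37], below the threshold for a higher gene. *Porcn*, the enzyme that attaches the lipid, was at 2.30 TPM with siCtrl and 1.23 TPM with si*Vgll3* (M of −0.91 [−1.21, −0.61], and −0.57 with 1 TPM added to each value). *Wls* held 99.5% of the TPM of this pair in siCtrl, so the sum (421 and 536 TPM) describes *Wls* alone.

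**Figure D3:**
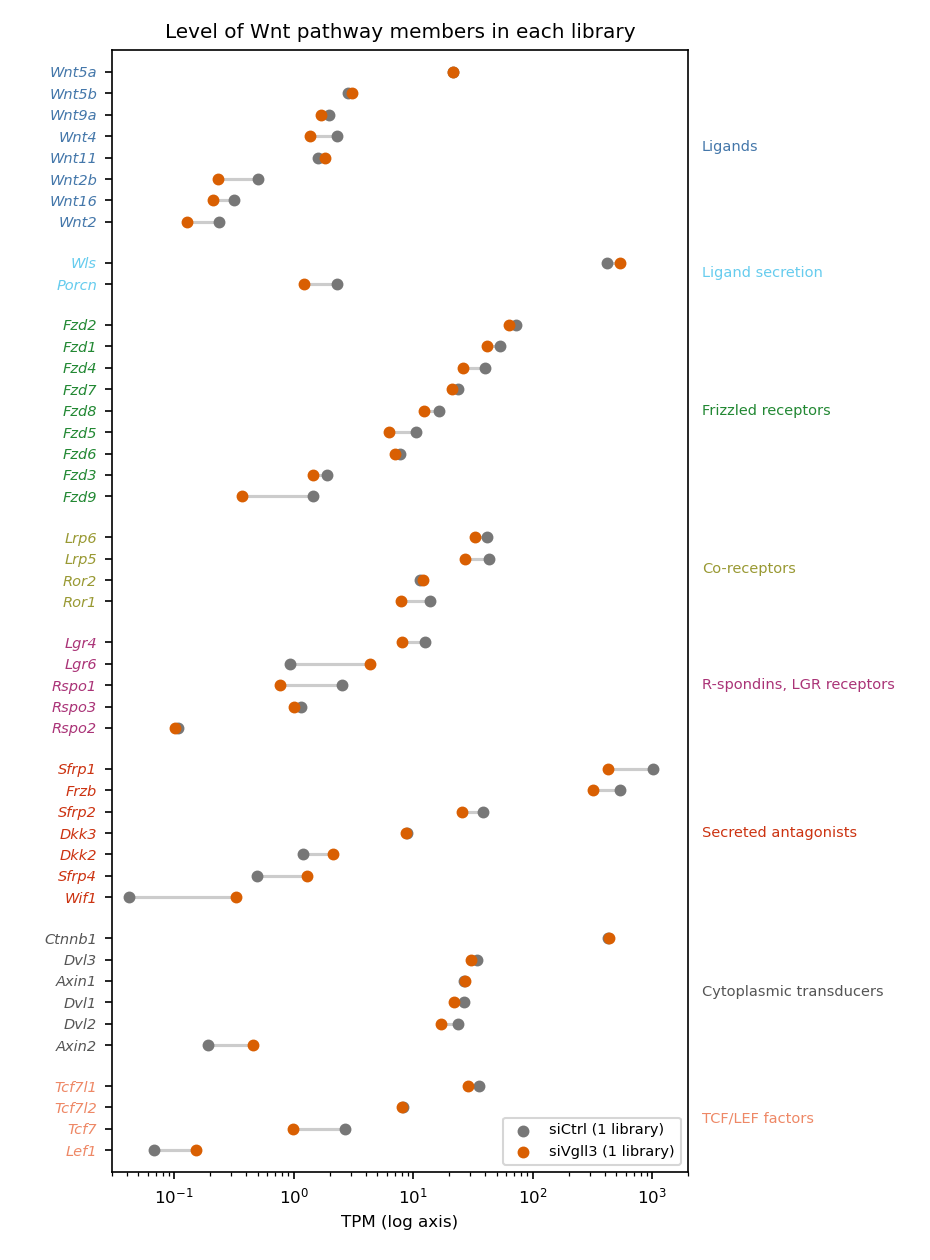
TPM (log axis) of the 45 Wnt genes with a value, with 1 grey point for the siCtrl library and 1 orange point for the siVgll3 library. In siCtrl, Sfrp1 (1016 TPM), Frzb (539 TPM), Ctnnb1 (423 TPM) and Wls (418 TPM) stand apart from the rest.

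Frizzled receptors, the seven-pass receptors for Wnt ligands, were mostly within the thresholds. Of the 10 genes 8 were at A above 0, and 2 were called lower, against 11.4% of all genes. All 8 had M below 0, as had 6700 of the 11754 genes at A above 0. TPM over the group came to 227 with siCtrl and 179 with si*Vgll3*, a log2 ratio of −0.34. *Fzd4*, also the receptor for norrin, was at 40.1 TPM with siCtrl and 25.9 TPM with si*Vgll3* (M of −0.63 [−0.68, −0.58]). *Fzd5* was at 10.5 and 6.29 TPM, and its M was −0.74 [−0.81, −0.67]. The 2 most abundant receptors differed less. *Fzd2* was at 72.4 TPM with siCtrl and 63.4 TPM with si*Vgll3* (M of −0.19 [−0.22, −0.16]), and *Fzd1* was at 52.9 and 41.2 TPM (M of −0.36 [−0.40, −0.32]).

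The other frizzled genes at A above 0 had M between −0.40 (*Fzd8*) and −0.14 (*Fzd6*), with *Fzd7* at −0.19 and *Fzd3* at −0.39. The lowest M of the family belonged to *Fzd9*, at 197 reads with siCtrl and 47 with si*Vgll3* (1.46 and 0.369 TPM). This gave −1.99 [−2.48, −1.52], but its mean level was just under 1 TPM, so it is not among the 36 genes. *Fzd10* had 0 reads with siCtrl and 18 with si*Vgll3*, at least 6.72-fold higher as a share of all reads. The order of the receptors by TPM from *Fzd2* through *Fzd1*, *Fzd4* and *Fzd7* to *Fzd8* was the same in both libraries. *Fzd5* stood above *Fzd6* with siCtrl (10.5 and 7.72 TPM) and below it with si*Vgll3* (6.29 and 7.03 TPM).

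Within both pairs of co-receptors 1 gene was called lower and the other was not. *Lrp5* and *Lrp6* encode the co-receptors that carry the signal to β-catenin. *Lrp5* was at 42.9 TPM with siCtrl and 27.1 TPM with si*Vgll3* (M of −0.66 [−0.70, −0.63]). *Lrp6* was at 41.7 and 32.9 TPM (M of −0.34 [−0.37, −0.32]). The TPM ratio of *Lrp5* to *Lrp6* was 1.03 with siCtrl and 0.823 with si*Vgll3*, and their counting intervals did not overlap.

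*Ror1* and *Ror2* encode the receptor tyrosine kinases that bind WNT5A. *Ror1* was at 14.0 TPM with siCtrl and 7.93 TPM with si*Vgll3* (M of −0.82 [−0.88, −0.75]), the lowest of the co-receptors. *Ror2* was at 11.5 and 12.1 TPM, and its M was 0.08 [0.01, 0.16]. *Ror1* was thus the more abundant of the 2 in siCtrl, at 1.22 times the level of *Ror2*, and the less abundant in si*Vgll3*, at 0.654 times.

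R-spondins are secreted proteins that strengthen Wnt signals through the receptors LGR4, LGR5 and LGR6, and this small group held both extremes among the 36 genes. *Lgr6* had the highest M of all Wnt genes at A above 0. It had 217 reads and 0.934 TPM with siCtrl and 928 reads and 4.33 TPM with si*Vgll3* (4.64-fold, M of 2.21 [1.998, 2.43]). *Rspo1* had the lowest, with 298 reads and 2.54 TPM with siCtrl and 84 reads and 0.768 TPM with si*Vgll3* (M of −1.73 [−2.10, −1.37]). After adding 1 TPM to each library's value these were 1.46 for *Lgr6* and −1.004 for *Rspo1*, past the threshold in the same directions. Both genes passed A above 0 only through the library where they were high. At A below 0, *Wif1* (M of 2.97) and *Fzd9* (M of −1.99) lay farther out. *Lgr4*, the main LGR gene of these cells, was at 12.5 TPM with siCtrl and 8.14 TPM with si*Vgll3* (M of −0.62 [−0.70, −0.55]). The level of *Lgr4* was 13.4 times that of *Lgr6* with siCtrl and 1.88 times with si*Vgll3*.

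*Rspo3* was at 1.16 TPM with siCtrl and 1.00 TPM with si*Vgll3*, and its interval held 0 (M of −0.21 [−0.54, 0.11]). *Rspo2* had 24 and 20 reads, and *Rspo4* and *Lgr5* had 0 reads in both libraries. The group came to 17.3 TPM with siCtrl and 14.3 TPM with si*Vgll3*, a log2 ratio of −0.27 that turned to 0.39 without *Lgr4*. Mesothelial cells are a known source of R-spondin 1, and none of the 5 mesothelial markers was at 0, with 3 lower and 2 higher in TPM. *Upk3b* was at 31.6 TPM with siCtrl and 9.89 TPM with si*Vgll3*, while *Msln* was at 1.58 and 5.93 TPM. The part of such cells in the level of *Rspo1* was not tested.

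**Figure D4:**
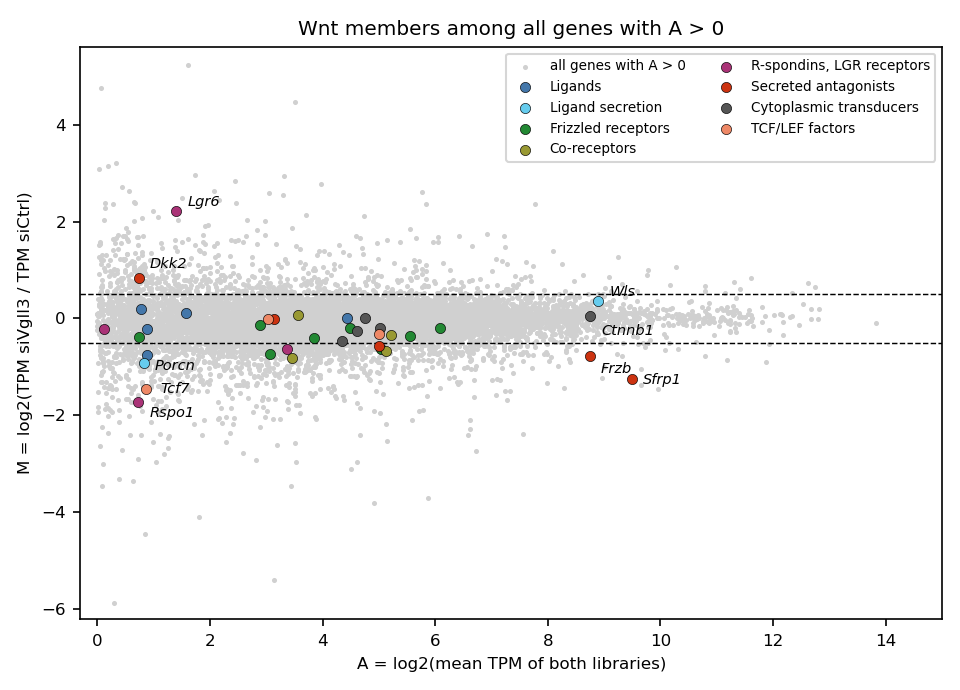
M against A for the 11754 genes at A above 0 (grey) with the 36 Wnt genes coloured by role, and dashed lines at M of −0.5 and 0.5. Sfrp1 and Frzb lie below the lower line at high A, and Lgr6, at an M of 2.21, lies far above the upper line at low A.

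None of the cytoplasmic transducers at A above 0 was called in either direction. *Ctnnb1*, which encodes β-catenin, was at 423 TPM with siCtrl and 439 TPM with si*Vgll3* (M of 0.05 [0.04, 0.07]). *Axin1*, the scaffold of the complex that degrades β-catenin, was at 26.9 TPM in both (M of 0.00 [−0.05, 0.05]). The Dishevelled genes, which relay the signal from frizzled, had M of −0.26 for *Dvl1*, −0.46 for *Dvl2* and −0.19 for *Dvl3*, the last at 34.5 and 30.2 TPM. The interval of *Dvl2*, −0.53 to −0.40, reached past the threshold. TPM over the group came to 534 with siCtrl and 535 with si*Vgll3*, and without *Ctnnb1* the log2 ratio was −0.21. *Axin2*, a feedback inhibitor and widely used readout of β-catenin activity, had only 52 reads (0.191 TPM) with siCtrl and 116 reads (0.458 TPM) with si*Vgll3*, and its M was 1.26 [0.78, 1.76].

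Of the TCF/LEF factors, the DNA-binding partners of β-catenin, *Tcf7l1* was the most abundant at 35.6 TPM with siCtrl and 28.7 TPM with si*Vgll3* (M of −0.31 [−0.37, −0.26]). *Tcf7l2* was at 8.16 and 8.11 TPM (M of −0.01 [−0.10, 0.08]). *Tcf7*, which encodes TCF1, was called lower, with 461 reads and 2.67 TPM with siCtrl and 157 reads and 0.981 TPM with si*Vgll3* (M of −1.45 [−1.72, −1.18]). *Lef1* was barely detected, with 16 and 33 reads (M of 1.17 [0.27, 2.13]). *Tcf7* and *Lef1* are themselves reported targets of the pathway, as is *Axin2*, and of these genes *Tcf7* alone was at A above 0. With 1 TPM added to each value, M was −0.89 for *Tcf7*, 0.29 for *Axin2* and 0.11 for *Lef1*.

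Among the 9 genes at or below A of 0, the counting interval lay wholly below 0 for 2 (*Fzd9*, *Wnt2b*), wholly above 0 for 4 (*Wif1*, *Sfrp4*, *Axin2*, *Lef1*) and held 0 for 3 (*Wnt2*, *Wnt16*, *Rspo2*). With no filter on A, 16 of 45 Wnt genes were lower and 6 higher, beside 14.9% and 10.1% of all genes. With A above 2, 8 of 25 were lower and 0 higher, beside 9.34% and 3.95% of all genes.

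Other genes of the pathway were taken from 7 lists that left out the 62 genes. Of 158 symbols 156 were in the count table and 119 genes were at A above 0, with 23 lower (19.3%, against 11.4% of all genes) and 3 higher (2.52%, against 5.73%). With CPM 7 were higher, beside 6.36% of all genes. The lists share genes, such as *Apcdd1* and *Nkd1*, which are counted once in these totals.

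Extracellular modulators had 9 lower and 0 higher of 18 genes (11.4% and 5.73% of all genes), with a median M of −0.50 against −0.05 over all genes. *Apcdd1*, a membrane inhibitor of the pathway, was at 17.9 TPM with siCtrl and 5.21 TPM with si*Vgll3* (M of −1.78 [−1.89, −1.67]). *Gpc3*, a heparan sulfate proteoglycan that binds Wnt proteins, was at 26.2 and 9.21 TPM (M of −1.51 [−1.60, −1.42]). *Lrp4*, a relative of LRP6, had an M of −1.08 [−1.22, −0.94]. The other lower genes of this list were *Reck* (−0.86), *Adgra2* (−0.71), *Serpinf1* (−0.65), *Sulf2* (−0.63), *Gpc6* (−0.59) and *Gpc4* (−0.56), which were named after their values were seen. *Reck* and *Adgra2* encode partners that together make a receptor complex selective for WNT7 ligands.

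Regulators of receptors and Dishevelled had 3 lower and 0 higher of 7 genes, beside 11.4% and 5.73% of all genes, with a median M of −0.48. The whole counting interval lay past the threshold for 2 of these 3. *Nkd1* and *Nkd2* encode Dishevelled-binding inhibitors. *Nkd1* was at 2.22 TPM with siCtrl and 0.706 TPM with si*Vgll3* (M of −1.65 [−1.90, −1.41]), and *Nkd2* was at 74.3 and 50.1 TPM (M of −0.57 [−0.60, −0.53]). *Kremen1*, a receptor for DKK proteins, had an M of −0.53 [−0.59, −0.47]. Planar cell polarity genes had 7 lower and 0 higher of 20, beside 11.4% and 5.73% of all genes, with a median M of −0.09. The whole counting interval lay past the threshold for 4 of these 7. Among them were the formin gene *Daam2* (−1.42 [−1.60, −1.24]), *Prickle1* (−1.16 [−1.31, −1.01]) and *Invs* (−0.95 [−1.05, −0.86]). *Prickle1* was at 4.80 TPM with siCtrl and 2.15 TPM with si*Vgll3*.

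No gene was called in 2 of the lists. The destruction complex and its regulators had 0 lower and 0 higher of 18 genes (median M of −0.01), and the calcium branch had 0 and 0 of 15 (median M of −0.03). Nuclear cofactors had 1 lower and 0 higher of 25. Among all genes at A above 0, 11.4% were lower and 5.73% higher. The lower nuclear cofactor was *Tle2*, a corepressor that binds TCF factors, at 3.34 TPM with siCtrl and 1.03 TPM with si*Vgll3* (M of −1.69 [−1.94, −1.45]).

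Reported targets of β-catenin went both ways, with 6 lower and 3 higher of 22 genes, beside 11.4% and 5.73% of all genes, and a median M of 0.02. The 3 higher were *Ccnd1* (cyclin D1) at 86.5 TPM with siCtrl and 170 TPM with si*Vgll3* (M of 0.98 [0.95, 1.00]), *Fosl1* with an M of 0.90 and *Plaur*, the urokinase receptor gene, with an M of 0.79. Beside *Apcdd1*, *Nkd1* and *Nkd2*, the lower ones were *Fgf18* (−1.45 [−1.90, −1.02]), *Bmp4* (−1.09) and *Wisp2* (−1.36), the last 2 named after their values were seen. *Wisp2*, a matricellular protein gene of the CCN family, was at 1165 TPM with siCtrl and 453 TPM with si*Vgll3*. Most of these genes are also controlled by other pathways.

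**Figure D5:**
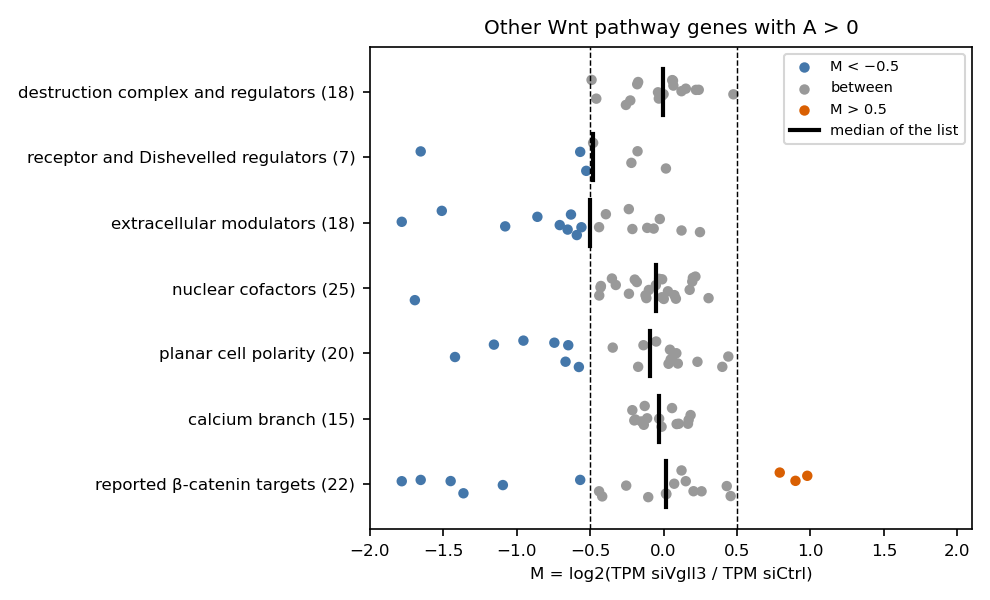
M of the other Wnt pathway genes at A above 0 in each list (number of genes in parentheses), with blue points at M < −0.5, orange points at M > 0.5 and a black bar at the median. The extracellular modulators have 9 of 18 points below −0.5, while the destruction complex has 0 of 18.

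The promoters of the Wnt genes were searched on both strands for the core letters of the TCF/LEF site, ATCAAAG, and of the TEAD site, CATTCC, since *Vgll3* encodes a cofactor of TEAD factors. The RefSeq table for GRCm38.p6, the assembly of mm10, holds 250 bases before and 50 after the start of transcription for 43 of the 62 genes. ATCAAAG was found for 2 of the 43 genes (4.65%), against 3.90% of 18245 genes of the count table with a promoter. CATTCC was found for 3 of the 43 (6.98%, exact binomial interval 1.46 to 19.1%), against 15.3% of the 18245. In the 150 bases before the start there were 0 of 43 with CATTCC (interval 0 to 8.22%), against 8.12%. For ATCAAAG there were 2 of 43 (4.65%, interval 0.568 to 15.8%), against 1.85%. Both intervals hold the share of all genes. The CATTCC match of *Wnt5b* begins 14 bases after the start. Of the 9 lower Wnt genes with a promoter in the table, *Lgr4* alone held CATTCC, with 2 copies that begin 178 and 158 bases before the start. The lower genes *Sfrp1*, *Lrp5* and *Porcn* have no promoter there and were not searched. The other matches were CATTCC for *Dvl2* and *Wnt5b* and ATCAAAG for *Wnt11* and *Wnt5b*, all genes within the thresholds. Some genes have several starts, and a match at any of them was counted. *Wnt11* has a further start without a match. The 250 bases before the start are shown for *Lgr4* (chr2:109917397-109917646, plus strand) and *Wnt11* (chr7:98834862-98835111, plus strand). They are examples of a gene with a TEAD match and of a gene with a TCF/LEF match, with the matches in capitals.
*Lgr4*: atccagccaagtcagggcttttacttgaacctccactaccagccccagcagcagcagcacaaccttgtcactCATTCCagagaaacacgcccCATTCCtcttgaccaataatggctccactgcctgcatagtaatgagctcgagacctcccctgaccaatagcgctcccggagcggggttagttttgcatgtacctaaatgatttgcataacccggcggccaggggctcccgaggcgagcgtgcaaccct
*Wnt11*: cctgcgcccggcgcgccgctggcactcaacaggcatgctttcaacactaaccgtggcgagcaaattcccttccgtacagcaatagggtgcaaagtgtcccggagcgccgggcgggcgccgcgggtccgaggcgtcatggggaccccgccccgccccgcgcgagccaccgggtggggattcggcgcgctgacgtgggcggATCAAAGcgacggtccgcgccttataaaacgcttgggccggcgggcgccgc
A match describes letters only and not binding of a factor.

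The study follows miR-29b, so the 3′ ends of the Wnt transcripts were searched for TGGTGCT, the reverse complement of its seed (bases 2 to 8, in capitals in the mature RefSeq sequence). The family members miR-29a and miR-29c share this seed, and no small RNA was measured in these libraries.
miR-29b-3p: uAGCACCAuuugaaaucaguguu
In GENCODE vM21 transcripts (GRCm38), 8 of the 62 Wnt genes held a site in the 3′ UTR. Of the 36 at A above 0 it was 5 (13.9%), against 14.4% of 11073 genes at A above 0 with a 3′ UTR. The 5 were *Ctnnb1*, *Fzd5*, *Fzd6*, *Lrp6* and *Ror1*, with a median M of −0.34, and the other 31 had a median M of −0.26. Of the 5, 2 were lower, against 10 of the 31, while over all genes 13.7% with a site and 10.9% without were lower. Over all genes the medians were −0.08 with a site and −0.04 without, and genes with a site had longer 3′ UTRs (median 2352 and 870 bases). The sites of the 2 lower genes are shown with the seed match in capitals, at chr4:100442566-100442572 on the plus strand for *Ror1* and chr1:64734738-64734744 on the minus strand for *Fzd5*.
*Ror1*: aaacagaagtcaaaTGGTGCTct
*Fzd5*: tccgtttaccttctTGGTGCTga
Neither *Sfrp1* nor *Frzb*, the lower genes of highest level, held this site.

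In GENCODE vM21, *Sfrp1* lies at chr8:23411502-23449632, *Frzb* at chr2:80411970-80447625 and *Lgr6* at chr1:134983301-135105276, and no other annotated gene overlaps them. Of the 14 called Wnt genes 5 overlap another annotated gene (*Fzd5*, *Ror1*, *Rspo1*, *Sfrp2* and *Tcf7*). *Ror1* and *Tcf7* overlap a gene on the same strand, which counting by strand would not separate. *Fzd5*, *Rspo1* and *Sfrp2* overlap genes on the opposite strand only. The kit keeps the strand of the RNA, but whether the counting used it is not given in the sources used here. Part of the reads of these 5 may therefore come from the neighbour.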

How the data were processed

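The data are RNA-seq of mouse cardiac myofibroblasts, 1 library for siCtrl and 1 for si*Vgll3*. Per the labels and the methods of the study, libraries were made with the TruSeq Stranded mRNA LT kit and read on a Illumina NovaSeq. Reads were checked with FastQC, trimmed with Trimmomatic, mapped to mm10 with HISAT2 and assembled on known genes with StringTie. Versions and the annotation release are not given in the sources used here. The authors deposited raw read counts per gene, with no normalization, and TPM per gene, scaled by them for length and depth. TPM is listed for 14158 genes, none of which lacked reads in either library.

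M, A and the thresholds (A above 0, M past 0.5 in either direction, taken from the study's own plot and mirrored) were computed from the deposited TPM in Python 3.11.15 with scipy 1.17.1. The study does not state how its A was computed, so the genes it found lower need not be the same set. Intervals are 95% Clopper-Pearson intervals of the count ratio, moved onto the TPM ratio. Their code was run on simulated independent counts scaled by depth. Such counts cannot test the move onto TPM or the effect of reads that are not independent. A count of 0 allows up to 3 reads. With 1 library per condition no model was fitted. edgeR 4.0.16 (TMM factors of 0.997 and 1.003, siCtrl first) and DESeq2 1.42.0 (size factors of 1.05 and 0.949) gave alternative scalings only.

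The Wnt genes, the lists of other pathway genes and the markers were chosen with earlier results of these data known. Named are all called Wnt genes, the 3 highest of each role, genes with more than 3 reads in 1 library only, and up to 3 called genes per direction in each other list. Further genes were named after their values were seen, and so were the searches for miR-29 sites and overlapping genes chosen. The 3′ UTR of a gene is that of its transcript with the longest coding sequence. Sequences came from RefSeq tables (GRCm38.p6) and GENCODE vM21.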

Additional observations from a re-analysis of the deposited data

How the results depend on the processing

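No paired analysis was possible because siCtrl and si*Vgll3* are 1 library each, so no replicate could be left out either. The 12 lower and 2 higher Wnt genes were called in the same numbers with CPM, TMM scaling, DESeq2's size factors and centred M. A threshold of 1 on M left 3 lower and 1 higher Wnt genes, and 10 lower and 0 higher of the other pathway genes. With CPM, 10% of all genes were lower and 6.36% higher. The share of all genes was not counted at a threshold of 1 or with at least 10 reads in each library. Nor was it counted with TMM scaling, DESeq2's size factors or centred M, so the counts at these settings cannot be set against it. The number of higher Wnt genes was 0 with A > 2, 6 with no filter on A and 5 with at least 10 reads in each library. The higher genes among the other pathway genes, 3 in the deposited TPM, numbered 7 with CPM, 6 with TMM or DESeq2's factors, 5 with centred M, 11 with no filter and 9 with at least 10 reads. The median M of the Wnt genes was −0.19 over 45 genes with 1 TPM added, where every gene with TPM passes A above 0.

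With CPM, log2 ratios of the summed level moved outside their counting intervals for ligands (0.017), secretion genes (0.40) and frizzled receptors (−0.30). So did the log2 ratios for co-receptors (−0.39), cytoplasmic transducers (0.058) and TCF/LEF factors (−0.21). Without the highest gene they were −0.19 for ligands, −0.91 for secretion genes, −0.42 for frizzled receptors, −0.54 for co-receptors, 0.39 for R-spondins with LGR receptors, −0.73 for secreted antagonists, −0.21 for cytoplasmic transducers and −0.24 for TCF/LEF factors. CATTCC was in 0% of the Wnt promoters in the 150 bases before the start (exact interval 0 to 8.22%), against 8.12% of all genes. M from TPM minus M from CPM had a median of −0.051 over all genes and lay between −0.11 and −0.03 in the 36 Wnt genes. No called Wnt gene changed sign. Depth limits statements on genes with few reads. An effect of the siRNA and a difference between 2 cultures cannot be told apart.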
